A study of Mus musculus with 95 samples.

Results

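The probes described here are those that read higher in the medulla than in the cortex of the control thymus under both the epithelial and the T cell mask, with similar medullary levels under the masks. They number 200 of the 20175 probes of a mouse whole-transcriptome panel. They were selected on measured control levels alone, as log2(CPM + 1) of counts pooled over all control segments of a class, where CPM scales each library to the same total of counts. The levels had to span at least 0.5 over the 5 control classes, differ by less than 0.5 between medullary epithelium and medullary T cells, and lie at least 0.5 higher in medullary than in cortical epithelium. The control B cell level could not exceed the higher of the medullary levels. These conditions left 725 probes, of which 717 also had a positive score, meaning the smaller of the medulla minus cortex differences under the epithelial and the T cell mask. The 200 with the largest scores were taken. The score ran from 1.75 for the first member to 0.501 for the last, and the first probe left out scored 0.50. The last member stood at 4.81 and 5.68 in cortical and medullary epithelium and at 4.73 and 5.23 in cortical and medullary T cells, and the first probe left out at 4.27, 4.77, 4.30 and 4.87 in the same order.

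The thymus matures T cells in an outer cortex and an inner medulla. The cortical epithelium supports positive selection of immature thymocytes. The medullary epithelium, with dendritic cells and B cells, displays self antigens to more mature thymocytes, and loss of an ordered medulla is a known trait of thymoma, a tumour of thymic epithelium. Probes that are higher in medulla under both masks are the part of the zone difference that the masks did not separate.

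The tissue was formalin-fixed thymus of 8 mice, from a study of a knock-in of the L424H mutation of GTF2I, a general transcription factor gene. The 4 thymoma mice, 1042, 1044, 1082 and 1157, were Gtf2ifl/wt Foxn1-Cre/wt, with Cre driven by Foxn1, a thymic epithelial gene. Of the 4 controls, none with Cre, mice 1057 and 1059 had the genotype Gtf2ifl/fl and mice 1172 and 1143 the genotype Gtf2ifl/wt. Ages are not among the labels. In the GeoMx assay, tissue regions are divided by antibody masks, here against pan-cytokeratin (epithelium), CD3 (T cells) or B220 (B cells), and the probe tags of each segment are counted. The 95 segments were 13 of control cortical epithelium, 11 of control medullary epithelium, 13 of control cortical T cells, 11 of control medullary T cells, 10 of control B cells, 13 of thymoma epithelium, 12 of thymoma T cells and 12 of thymoma B cells. Mouse 1059 gave no medullary segment, so control medulla rests on 3 mice. The mouse was the replicate, and counts were summed over its segments of a class. Each of the 4 slides held 2 mice of 1 genotype, so slide and genotype cannot be told apart.

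Summed libraries held 63805 to 36879809 counts and single segments 8919 to 12551297. Mouse 1143 was shallow, with 45.4 to 77.4 counts per nucleus against 544 or more in every other library. No table used here pairs the panel's probe numbers with genes. The labels of zone and cell class could therefore not be checked against marker genes, and members are given by probe number.

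The 200 members fell into a higher-level and a low-level group. In pooled control medullary epithelium 134 members lay at a log2(CPM + 1) level of 4 or more, and 66 lay below it. That limit was set after the levels were seen and is used only to describe. The median pooled level of the 134 was 5.18 in control cortical epithelium and 6.00 in control medullary epithelium, and that of the 66 was 2.35 and 3.04. Over all probes the medians were 5.00 and 5.12.

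The low-level members were not scattered over the panel. Of the 66, 51 had numbers between 80820 and 81039, a run of 219 probes of low level in every class. Of the 219 probes of the run, 213 had a positive score, beside 12055 of the 19956 probes outside it. Among all 715 probes below 4 in control medullary epithelium 580 did. The 51 members in the run, taken for large scores, had a median score of 0.585. The 168 probes of the run that were not members had a median score of 0.313 and median levels of 2.61 in control cortical epithelium, 3.12 in control medullary epithelium and 3.04 in thymoma epithelium. Only 15 low-level members lay outside the run. What these probes target is not stated in the files, and whether the run holds control probes was not tested. Because of this split, each count below is also given for both groups.

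**Figure D1:**
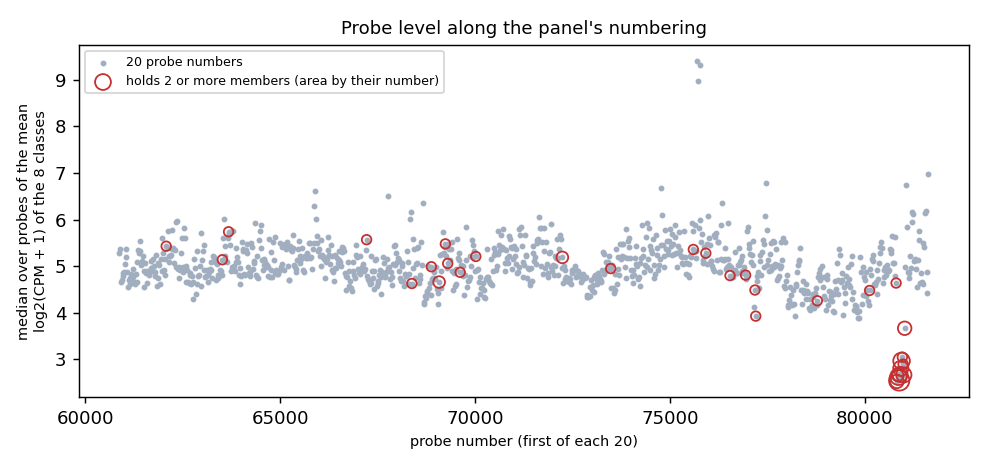
Median level of the probes in each stretch of 20 probe numbers (y axis, mean log2(CPM + 1) of the 8 classes) against the first number of the stretch (x axis). Red circles mark stretches with 2 or more members, with an area that grows with their number, and the densest circles fall on the low-level run that starts at 80820.

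Levels in control medulla were higher than in control cortex by construction, and are given as a description. In mouse 1057 all 134 higher-level members were higher in medullary than in cortical epithelium, with a median difference of 0.809 on the log2(CPM + 1) scale, and all 134 were higher under the T cell mask, with a median difference of 0.782. In mouse 1172 the numbers were 133 and 134 of 134, with medians of 0.728 and 0.688. In the shallow mouse 1143, 108 of 134 were higher in medullary epithelium, with a median of 0.612.

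To read the zone difference in a mouse that had no part in the choice, the rule was applied to the other controls. Lists chosen without mouse 1057 shared 106 of the 200 members. Of their 130 higher-level probes, 125 were higher in medullary epithelium of mouse 1057, with a median difference of 0.766, and 121 were higher under its T cell mask, with a median of 0.621. In mouse 1172, 134 of 136 such probes were higher in epithelium, with a median of 0.653, and in mouse 1143 115 of 147, with a median of 0.595. Over all probes the share that was higher in medullary epithelium was 58.5% in mouse 1057, 64.3% in mouse 1172 and 58.7% in mouse 1143. Of the low-level probes of these lists, 64 of 70 were higher in medullary epithelium of mouse 1057, 59 of 64 in mouse 1172 and 38 of 53 in mouse 1143. The zone difference was present in each held-out mouse, while the exact membership depended on the mice used.

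CPM values are relative to the total, which differed between zones. In mouse 1057 the segments gave 40310 counts per 1000 square µm in cortical and 19480 in medullary epithelium, and in mouse 1172 they gave 22420 and 10300. Per 1000 square µm, the higher-level members gave 475 counts in cortical and 446 in medullary epithelium of mouse 1057, and 242 and 199 in mouse 1172. The low-level members gave 11.0 and 9.20 in mouse 1057 and 6.14 and 4.67 in mouse 1172. Under the epithelial mask both groups were therefore higher in medulla as a share of counts but not per area in these mice. Under the T cell mask both were higher in medulla per area too. The higher-level members gave 456 counts in cortex and 550 in medulla of mouse 1057, and 271 and 336 in mouse 1172, and the low-level members gave 10.6 and 11.0, and 6.84 and 7.61. In epithelium of mouse 1143 the higher-level members gave 11.7 counts per 1000 square µm in cortex and 14.7 in medulla. Total counts per nucleus were 2173 in cortical and 1698 in medullary epithelium of mouse 1057, and 702.5 and 544.2 in mouse 1172. In the shallow mouse 1143 they went the other way, at 45.4 and 59.4. The part of cell density and of RNA per cell in the values per area was not tested.

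In thymoma, the higher-level members lay near the level of control cortex and below that of control medulla on the CPM scale, under both masks. Their median log2(CPM + 1) in thymoma epithelium was 5.10, 5.16, 4.99 and 5.22 in mice 1042, 1044, 1082 and 1157. It was 5.19, 5.02, 4.90 and 5.21 in control cortical epithelium of mice 1057, 1059, 1143 and 1172, and 6.05, 5.76 and 5.95 in control medullary epithelium of mice 1057, 1143 and 1172. The thymoma mice overlapped the cortical values, and each of them lay below each medullary value. Under the T cell mask the medians were 4.91, 5.11, 4.96 and 5.06 in thymoma. They were 4.91 to 5.17 in control cortex and 5.71 to 5.99 in control medulla, so thymoma again overlapped cortex and not medulla. Per 1000 square µm, the higher-level members gave 443, 180, 303 and 586.5 counts in thymoma epithelium. They gave 446 and 199 in medullary epithelium of mice 1057 and 1172. Under the T cell mask they gave 615, 252, 290 and 526 in thymoma, and 550 and 336 in medulla of these controls. Per area, thymoma therefore overlapped medulla of these 2 mice. The shallow mouse 1143 gave 14.7 and 20.5 in medulla.

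The median over all probes was itself lower in thymoma, at 4.77 ± 0.120 (SD, n = 4) in epithelium against 4.98 ± 0.0910 (SD, n = 4) in control cortical epithelium. Taken relative to the median of all probes in the same library, the higher-level members stood at 0.344 ± 0.182 (SD, n = 4) in thymoma epithelium, 0.0993 ± 0.0847 (SD, n = 4) in cortical epithelium and 0.786 ± 0.184 (SD, n = 3) in medullary epithelium. The 4 thymoma values were 0.441, 0.274, 0.125 and 0.537, so mouse 1082 lay within the cortical range of 0.00 to 0.207 and the other 3 lay above it. All 4 lay below the lowest medullary value of 0.647. Under the T cell mask the relative level was 0.220 ± 0.122 (SD, n = 4) in thymoma, 0.057 ± 0.0817 (SD, n = 4) in cortex and 0.761 ± 0.153 (SD, n = 3) in medulla. On this scale thymoma lay between the zones, nearer to cortex.

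The low-level members stood closer to medulla. In thymoma epithelium their median log2(CPM + 1) was 3.16, 2.99, 2.90 and 2.79 in mice 1042, 1044, 1082 and 1157. It was 2.34, 2.12 and 2.29 in cortical epithelium of mice 1057, 1059 and 1172, and 2.97 and 2.98 in medullary epithelium of mice 1057 and 1172. The shallow mouse 1143 gave 3.41 in cortical and 4.54 in medullary epithelium. Without that mouse, all 4 thymoma values were above the cortical ones and straddled the medullary ones. Relative to the median of all probes in the same library, the thymoma values were -1.5, -1.9, -1.97 and -1.89. All 4 lay above the medullary values of mice 1057 and 1172, at -2.09 and -2.26, and below that of mouse 1143, at -0.565.

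**Figure D2:**
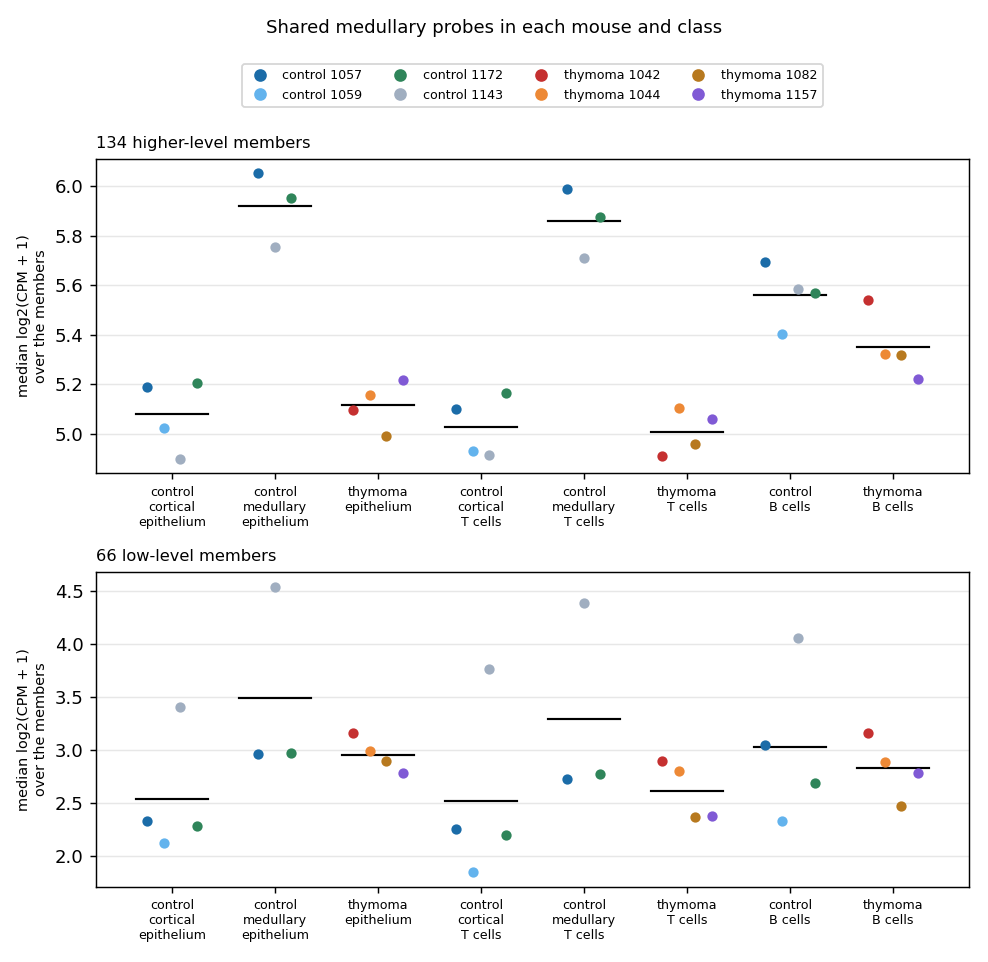
Median log2(CPM + 1) over the 134 higher-level members (top) and the 66 low-level members (bottom) in each mouse (points) and class (x axis), with the class mean as a bar. The y axes do not start at 0. In the top panel the thymoma epithelial values of 4.99 to 5.22 lie among the cortical values, and in the bottom panel mouse 1143 lies above every other mouse in its classes.

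Each member was also placed between control cortex, set to 0, and control medulla, set to 1, from pooled log2(CPM + 1) levels. In thymoma epithelium 69 of the 134 higher-level members lay below the cortical level, 61 lay between the zones and 4 lay above the medullary level, with a median position of -0.00924. In single thymoma mice that median ran from -0.143 to 0.0555. Of the 66 low-level members none lay below cortex, 51 lay between and 15 lay above medulla, with a median of 0.826 and a range over mice from 0.599 to 1.08.

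Under the T cell mask 80 of the 134 lay below cortex, 52 between and 2 above medulla, with a median of -0.0775. The low-level members had a median of 0.664 there, with 1.03 and 0.933 in mice 1042 and 1044 against 0.263 and 0.341 in mice 1082 and 1157. Below cortex under both masks were 61 members, all of higher level. Above medulla under both masks were 7 members, 2 of higher and 5 of low level. The median pooled level over all probes was also lower in thymoma than in cortex. It was 4.77 against 5.00 in epithelium and 4.78 against 5.04 in T cells. The fits below use TMM scaling between libraries. There 90 of the 134 had a fold change above 0 against cortical epithelium, beside 9218 of 20175 probes. Against cortical T cells 83 of the 134 did, beside 8628 of all probes.

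**Figure D3:**
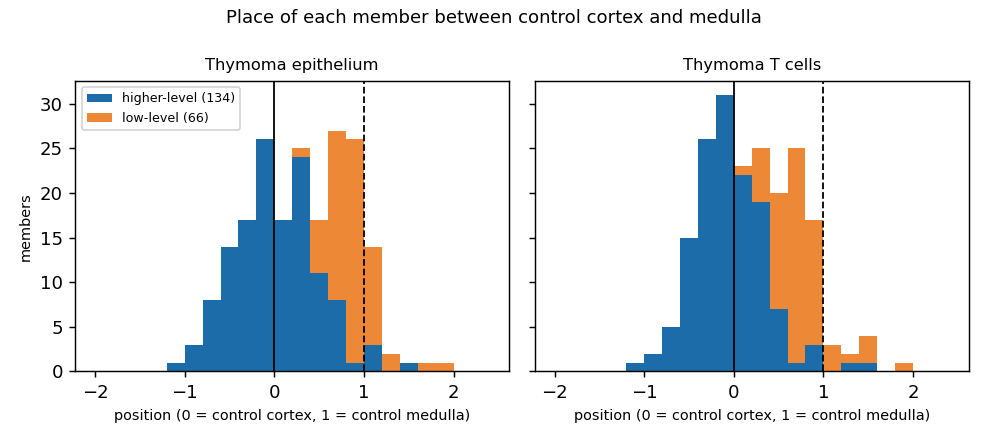
Number of members (y axis) by position between control cortex (0, solid line) and control medulla (1, dashed line) in thymoma epithelium and thymoma T cells. The higher-level members centre near 0, with medians of -0.00924 and -0.0775, and the low-level members lie to their right, with medians of 0.826 and 0.664.

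Single segments are the parts summed into the mouse values, so they are a description and no further support. The rule chose the members by the same control segments. The median level of the higher-level members ran from 4.94 to 5.29 over the 13 thymoma epithelial segments. None of the 13 reached the lowest medullary epithelial segment, at 5.56, and 12 lay at or below the highest cortical one, at 5.27. Of the 12 thymoma T cell segments none reached the lowest medullary T cell segment, at 5.58, and all 12 lay at or below the highest cortical one, at 5.23. For the low-level members 9 of the 13 thymoma epithelial segments reached the lowest medullary segment, at 2.86. None was as low as the highest cortical segment, at 2.51. Under the T cell mask 8 of the 12 thymoma segments reached the lowest medullary one, at 2.54. All 12 lay at or below the highest cortical one, at 3.79. With control segments of mouse 1143 left out, 3 lay at or below the highest cortical one, at 2.36. Segments of a mouse share an animal and a slide, and no region among the 13 thymoma epithelial segments stood out with a medullary level of the higher-level members. In 12 regions with both masks, the level of the higher-level members under both masks moved together (Pearson r = 0.744, and 0.916 after subtracting each mouse's mean), as a description of segments that share region, slide and mouse.

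**Figure D4:**
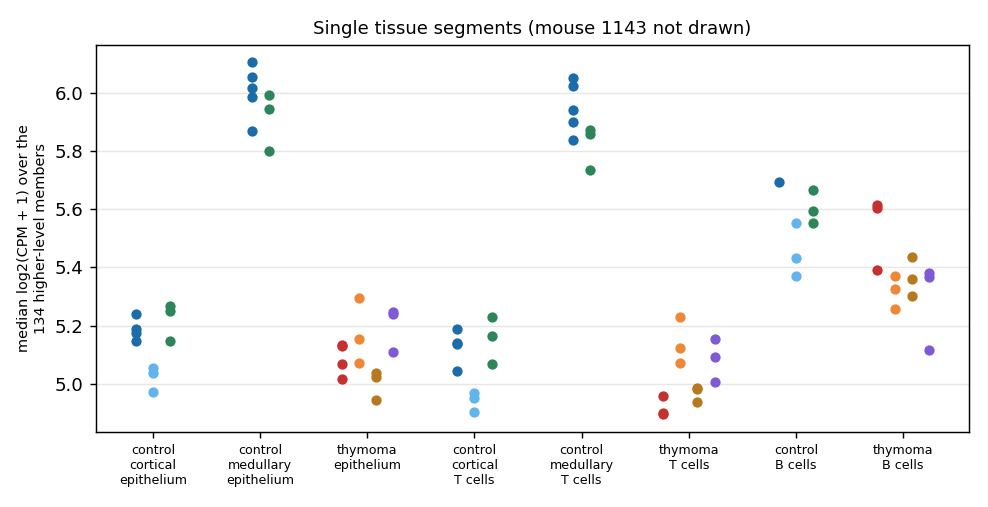
Median log2(CPM + 1) of the 134 higher-level members in single segments (points, coloured by mouse as in the plot of levels by mouse), by class. The y axis does not start at 0, and the shallow segments of mouse 1143 are not drawn. Thymoma epithelial segments span 4.94 to 5.29 and lie below every medullary segment drawn.

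The members were then read in fits over all probes, with the edgeR quasi-likelihood test and a Benjamini-Hochberg adjusted p below 0.05 over all probes as the call. The rule chose members for high medullary and low cortical control values, and those control libraries enter the fits against control, so counts there are a description. Against control medullary epithelium, 46 of 200 members were called lower in thymoma epithelium and 0 higher, beside 2.81% and 7.28% of all probes. All 46 were of higher level, and the median log2 fold change was -0.52 for the 134, 0.12 for the 66 and -0.09 for all probes. At an unadjusted p below 0.05, 70 members were lower and 1 was higher, beside 6727 of all 20175 probes in either direction. DESeq2 called 1 higher, beside 2701 of all probes. Upper-quartile scaling moved the median of all probes to -0.31, with the 134 at -0.74 and the 66 at -0.11, so the 66 lay above the median of all probes under both scalings. The thymoma and control mice did not overlap, with thymoma lower, for 83 members, 79 of the 134 and 4 of the 66, beside 32.8% of all probes. With thymoma higher this held for 0 members, beside 9.95% of all probes.

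The number called lower changed with single mice, together with the number over all probes, which was 567 with every mouse. Leaving out mouse 1172 gave 8 members and 25 of all probes, mouse 1157 gave 14 and 49, mouse 1042 gave 17 and 79, and mouse 1082 gave 25 and 230. Leaving out the shallow mouse 1143 gave 59 members, all of higher level, and 1174 of all probes. The median of the 134 without mouse 1143 was -0.49.

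Against control cortical epithelium few higher-level members were called, and the low-level members had the larger fold changes. In this fit 16 members were called higher and 0 lower, beside 2.4% and 1.03% of all probes, and the median log2 fold change was 0.17 for the 134, 0.91 for the 66 and -0.04 for all probes. The 16 were 5 of higher and 11 of low level. At an unadjusted p below 0.05, 93 members were higher, 37 of higher and 56 of low level, and 8 were lower. Over all 20175 probes 5159 passed in either direction. All 66 low-level members had a fold change above 0. The same was seen in most of the rest of the low run, where 161 of the 168 probes that were not members had a fold change above 0, with a median of 0.70. Members whose mice did not overlap, with thymoma higher, numbered 23, 10 of higher and 13 of low level, beside 5.1% of all probes. With thymoma lower they numbered 10, all of higher level, beside 11.1% of all probes.

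The count of 16, beside 484 of all probes, was 52 without mouse 1143 (18 of higher and 34 of low level), beside 1192, and 39 without mouse 1082, beside 772. It was 3 without mouse 1042 or 1157, 2 without 1172 and 1 without 1057 or 1059, beside 41 to 180 of all probes. Under upper-quartile scaling the median was 0.02 for the 134 and -0.18 for all probes.

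Under the T cell mask the same order was seen. Against control medullary T cells 40 members were called lower and 0 higher, beside 1.25% and 3.92% of all probes. All 40 were of higher level, and the median log2 fold change was -0.59 for the 134, 0.01 for the 66 and -0.09 for all probes. At an unadjusted p below 0.05, 0 members were higher and 82 lower, beside 5991 of all 20175 probes in either direction. DESeq2 and limma also called 0 higher, beside 2343 and 1 of all probes, but DESeq2 gave no adjusted p to any of the 66. Upper-quartile scaling moved the median of all probes to -0.31 and that of the 66 to -0.22. The mice did not overlap, with thymoma lower, for 86 members, 85 of the 134 and 1 of the 66, beside 30.1% of all probes. With thymoma higher this held for 0 members, beside 9.66% of all probes. Leaving out mouse 1157 gave 0 in place of the 40, mouse 1082 gave 1, mouse 1042 gave 2, mouse 1172 gave 4, mouse 1044 gave 12 and mouse 1057 gave 24. Over all probes the lower calls were 253 with every mouse and 0, 1, 2, 5, 25 and 129 in that order. Leaving out mouse 1143 gave 70 members and 968 of all probes.

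Against control cortical T cells no member was called in either direction by edgeR, beside 0% of all probes higher and 0.00496% lower. At an unadjusted p below 0.05, 37 members were higher and 3 lower, beside 4629 of all 20175 probes in either direction. DESeq2 called 9 higher, beside 757 of all probes, but gave no adjusted p to 65 of the 66 low-level members. Limma called 0. Without mouse 1143 edgeR called 43 members higher, 18 of higher and 25 of low level, and 3 lower, beside 1355 of all probes higher and 1679 lower. The median log2 fold change was 0.11 for the 134, 0.69 for the 66 and -0.06 for all probes. Under upper-quartile scaling it was -0.01 for the 134 and -0.20 for all probes. The mice did not overlap for 4 members with thymoma higher, beside 4.55% of all probes, and for 4 with thymoma lower, beside 11.1% of all probes.

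The lists of other zone patterns were read in the same fits, with the same control libraries. The 200 probes chosen by the mirrored rule as higher in cortex under both masks had a median log2 fold change of 1.49 against medullary epithelium, with 167 called higher, and of 0.11 against cortical epithelium, with 2 called lower. The 200 probes higher in medulla under the epithelial mask alone had a median of -0.15 against medullary epithelium, with 38 called lower and 9 higher. Against cortical epithelium 77 of those were called higher, with a median of 0.64, beside the 16 called among the members of both masks. None of these lists shared a probe with the members, and the difference between lists was not tested.

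Comparisons within thymoma used no control library, so they did not share a value with the rule. In the comparison of thymoma epithelium with thymoma T cells of the same mice, calls among the members were mostly toward epithelium. With the mouse as a block, 87 of 200 members were called higher in epithelium and 11 lower, beside 14.2% and 11.0% of all probes. Of the 134 higher-level members 53 were called higher and 11 lower, with a median log2 fold change of 0.12, and of the 66 low-level members 34 and 0, with a median of 0.38. The median over all probes was -0.03. The median difference of the 200 was 0.157, 0.101, 0.209 and 0.228 on the log2(CPM + 1) scale in mice 1042, 1044, 1082 and 1157, so its sign was the same in 4 of 4 mice. Calls toward epithelium were not particular to the members. In the low run, 82 of the 168 probes outside the list were called toward epithelium and 1 toward T cells (median 0.34). Among the 200 medullary probes of the epithelial mask alone these numbers were 154 and 1 (median 0.54). For the 200 probes higher in cortex under both masks they were 1 and 170 (median -0.36). Differences between these lists were not tested.

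The members were also grouped by their lean between masks in control medulla. Of the 143 members with a higher pooled level in control medullary epithelium than in control medullary T cells, 81 were called higher in thymoma epithelium and 1 lower, with a median log2 fold change of 0.34. Of the other 57, 6 were called higher and 10 lower, with a median of 0.01. Within the higher-level members the counts were 48 higher and 1 lower of 82, against 5 and 10 of 52. The difference between the groups was not tested. Without the mouse as a block no member was called in either direction, beside 13 of all probes higher and 0 lower. The number called higher ran from 66 to 87 when single mice were left out, beside 2399 to 2813 of all probes. The number lower was 2 without mouse 1042 and 5 without 1044, beside 1266 and 1236 of all probes.

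In B cells the higher-level members stood at or above their level in the other thymoma classes, on the CPM scale. Relative to the median of all probes this did not hold in mouse 1157, with 0.537 in epithelium and 0.326 in B cells. The median log2(CPM + 1) of the 134 was 5.54, 5.33, 5.32 and 5.22 in thymoma B cells of mice 1042, 1044, 1082 and 1157, and 5.69, 5.40, 5.59 and 5.57 in control B cells of mice 1057, 1059, 1143 and 1172. Most thymoma values lay below the control values, with overlap through mouse 1042. The fit against control B cells called 0 members in either direction, beside 0.00496% of all probes higher and 0% lower. At an unadjusted p below 0.05, 21 members were higher and 6 lower, beside 1832 of 20171 probes in either direction. Limma also called 0. DESeq2 called 0, but gave no adjusted p to 110 of the 134 and to all 66. The median log2 fold change was -0.02 for the 134 and 0.42 for the 66. The former was 0.00 without mouse 1143.

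Against thymoma T cells of the same mice, 59 members were called higher in thymoma B cells and 4 lower, beside 7.2% and 12.8% of all probes. Of these 58 and 4 were of higher level, and only 1 low-level member was called. The median log2 fold change was 0.29 for the 134, 0.12 for the 66 and 0.03 for all probes. The median difference of the 134 on the log2(CPM + 1) scale was 0.595, 0.205, 0.378 and 0.30 in mice 1042, 1044, 1082 and 1157, beside 0.29, 0.0703, -0.0819 and 0.16 for all probes.

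The members were grouped by their control B cell level as well. Of the 90 members whose control B cell level lay within 0.5 of the higher medullary level, 46 were called higher in thymoma B cells and 0 lower, with a median of 0.37. All 46 were among the 64 of higher level, of which 63 had a fold change above 0. Of the other 110 members 13 were called higher and 4 lower, with a median of 0.04. The number of members called lower was 2 without mouse 1044 or 1157 and 9 without 1082, beside 1859, 1687 and 3126 of all probes. By contrast 191 of the 200 probes higher in cortex under both masks were called lower in thymoma B cells than in thymoma T cells, and 1 higher. The 200 medullary probes of the epithelial mask alone gave 8 higher and 63 lower.

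**Figure D5:**
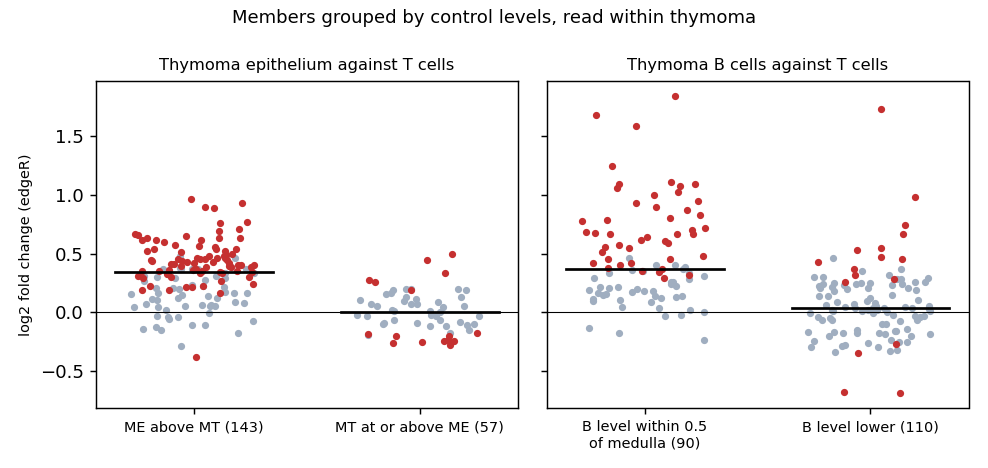
Log2 fold changes of the members (points, red where the adjusted p is below 0.05, with the median as a bar) within thymoma, by groups set from control levels. Members leaning to the epithelial mask in control medulla (143) have a median of 0.34 in epithelium against T cells, and members with a control B cell level within 0.5 of medulla (90) have a median of 0.37 in B cells against T cells. ME and MT stand for the pooled levels of control medullary epithelium and medullary T cells.

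RTS0066916, the member with the largest score, fell against medulla in thymoma under both masks. Its CPM was 87.6, 126 and 72.1 in control medullary epithelium of mice 1057, 1143 and 1172, and 23.6, 20.8, 28.9 and 25.7 in control cortical epithelium of mice 1057, 1059, 1143 and 1172, where mouse 1143 rests on 3 counts. In thymoma epithelium it was 19.6, 22.6, 19.8 and 19.4 in mice 1042, 1044, 1082 and 1157. The thymoma values lay below every medullary value and near the cortical ones. The log2 fold change against medullary epithelium was -1.86 (SE 0.204, edgeR adjusted p = 0.00442), and -1.68 without mouse 1143. The rule chose this probe for its high values in the same medullary libraries, so this p is no independent support. Against medullary T cells, where the same holds, the log2 fold change was also -1.86 (edgeR adjusted p = 0.02). There the call was lost without mouse 1042, 1082 or 1157, with edgeR adjusted p from 0.0505 to 0.0858, and by limma (adjusted p = 0.0982). In thymoma B cells the probe was at 55.4, 33.4, 44.1 and 24.6 CPM, higher than in thymoma T cells of the same mice by 0.74 on the log2 scale (SE 0.158, edgeR adjusted p = 0.00379).

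RTS0067230 had the next largest fall against medullary epithelium among the 42 members that were called and did not overlap between mice. Its CPM was 188, 544 and 170 in medullary epithelium of mice 1057, 1143 and 1172, and 50.5, 108, 81.3 and 74.7 in thymoma epithelium. Mouse 1143 was high for this probe in each control class, with 337 CPM in cortical epithelium against 82.7 to 98.5 in the other controls. The log2 fold change was -1.65 (SE 0.424, edgeR adjusted p = 0.0366, with the same limit), and -0.89 without mouse 1143. The call was lost without mouse 1042, 1044, 1082, 1157 or 1172, with edgeR adjusted p from 0.0558 to 0.114. It was also lost by limma (adjusted p = 0.0888). Gtf2ifl/fl controls alone leave only mouse 1057 in medulla, and gave a log2 fold change of -1.03. The probe was at 292 to 312 CPM in thymoma B cells and 59.3 to 113 in thymoma T cells, with no overlap. The log2 fold change of B cells against T cells was 1.68 (SE 0.167, edgeR adjusted p = 7.08e-06).

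The largest rises against cortical epithelium, among 12 members called and without overlap, were those of RTS0080831 and RTS0070975. Both were chosen after their values were seen, and the rule favoured low cortical values in the same libraries. RTS0070975 was at 92.4, 107, 69.6 and 124 CPM in thymoma epithelium of mice 1042, 1044, 1082 and 1157, and at 45.0, 34.2, 28.9 and 49.5 in control cortical epithelium. In control medullary epithelium it was at 81.4, 30.7 and 64.9, which overlapped thymoma. The log2 fold change against cortical epithelium was 1.38 (SE 0.228, edgeR adjusted p = 0.00628), and the call was lost with Gtf2ifl/wt controls alone (edgeR adjusted p = 0.188) and by limma on segment means (1.63, adjusted p = 0.839). In thymoma T cells it was at 50.9, 66.7, 38.9 and 52.5 CPM, lower than in thymoma epithelium of each mouse. The log2 fold change of thymoma epithelium against thymoma T cells was 0.94 (SE 0.0767, edgeR adjusted p = 2.51e-08), and was not called without the mouse as a block (edgeR adjusted p = 0.104).

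RTS0080831 lies in the low run. It gave 18, 4, 0 and 5 counts in control cortical epithelium of mice 1057, 1059, 1143 and 1172, or 2.11, 2.68, 0 and 2.43 CPM. In thymoma epithelium it gave 67, 37, 69 and 50 counts, or 5.47, 7.03, 5.18 and 4.40 CPM. The log2 fold change was 1.43 (SE 0.322, edgeR adjusted p = 0.0284), which was 1.42 without mouse 1143 (adjusted p = 0.017). The call was lost without mouse 1042, 1057, 1059, 1157 or 1172, with edgeR adjusted p from 0.0539 to 0.189. It was also lost with Gtf2ifl/fl or Gtf2ifl/wt controls alone (edgeR adjusted p = 0.0751 and 0.266) and by limma (adjusted p = 0.839). Its medullary values of 5.11, 16.8 and 6.87 CPM overlapped those of thymoma.

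The share of all counts taken by the members was 1.92 ± 0.442% (SD, n = 3) in control medullary epithelium, 1.00 ± 0.191% (SD, n = 4) in control cortical epithelium and 1.41 ± 0.349% (SD, n = 4) in thymoma epithelium. RTS0070220, named for its counts after they were seen, carried 28.6% of all member counts. It was at 6530, 1950, 3180 and 5510 CPM in thymoma epithelium of mice 1042, 1044, 1082 and 1157. In control cortical epithelium it was at 3860, 1150, 115 and 3340 CPM in mice 1057, 1059, 1143 and 1172, so control mice on the same slide differed severalfold. Without it the shares were 1.45 ± 0.0934% (SD, n = 3) in medullary, 0.789 ± 0.0988% (SD, n = 4) in cortical and 0.976 ± 0.144% (SD, n = 4) in thymoma epithelium.

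The median SD over the 4 thymoma mice, on the log2(CPM + 1) scale, was 0.234 for the members and 0.184 for all probes in epithelium, 0.212 and 0.185 in T cells, and 0.259 and 0.153 in B cells. For the 134 it was 0.236 in epithelium, 0.187 in T cells and 0.217 in B cells, so in T cells the higher-level members were close to all probes. For the 66, which rest on few counts, it was 0.227, 0.295 and 0.351. The share of counts was higher in mice 1042 and 1157, at 1.78% and 1.62% in epithelium, than in mice 1044 and 1082, at 1.07% and 1.16%. The same pairs stood apart in T cells, with 1.58% and 1.31% against 0.95% and 0.944%, and in B cells, with 1.71% and 1.58% against 1.17% and 1.35%. Each thymoma slide held 1 mouse of each pair. Without RTS0070220 the epithelial shares were 1.13%, 1.07%, 0.871% and 0.837% in mice 1042, 1157, 1044 and 1082.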

How the data were processed

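Each segment has a deposited file of raw probe counts in DCC format 0.02 from GeoMx_NGS_Pipeline 2.0.0, per the file headers. The counts as deposited by the authors are whole numbers, neither normalized nor background-corrected. For some deposited files the count column, recorded as other, has no usable name; these held whole-number counts too. Unlisted probes were set to 0. The members and lists were chosen with earlier results of these data known.

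Counts were summed per mouse and class, which the p-values take as replicates, so p-values measure the spread between mice. Probes passing filterByExpr were fitted with the edgeR 4.0.16 quasi-likelihood test (TMM scaling, R 4.3.3), with only the classes compared and Benjamini-Hochberg adjustment over all probes. The filterByExpr filter kept all 200 members in every fit that used it. All 20175 probes entered, or 20171 for B cells against control. Within thymoma the mouse was a block, because each animal contributed both classes, per the labels. Deviations from class means correlated at 0.745 to 0.878 between epithelium and T cells of a mouse, and at -0.0239 to 0.721 between B and T cells. The fit was tested on simulated data. Alternatives used DESeq2 1.42.0, limma 3.58.1, other scaling, filters, member rules and mice left out. Levels are log2(CPM + 1). Where no genes are named for the panel, the probes named were the 2 with the largest falls and rises against control medullary epithelium among members called and without overlap of mice. There were 42 that fell and 0 that rose. Others are said to be chosen after their values were seen. A count of 0 allows up to 3 counts, or 0.0047% of the smallest library and 8.13e-06% of the largest, for counting error only. Python 3.11.15, pandas 2.3.3 and matplotlib 3.10.9 were used for tables and plots. Counts of probe tags give no genome position, and probe sequences were not used here.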

Additional observations from a re-analysis of the deposited data

Results flagged for a closer look

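In groups of 4 mice, 48 sets of values were looked at for a mouse far from the other 3, and chance alone gives about 1 in 20. Of the 6 found, 5 concern mouse 1143, the shallow control. Its median log2(CPM + 1) of the low-level members in control cortical epithelium was 3.41, against 2.12 to 2.34 in the other controls. RTS0067230 stood at 337 CPM in its cortical epithelium, 387 CPM in its cortical T cells and 784 CPM in its B cells, each above the other controls. RTS0080831 stood at 47.0 CPM in its B cells, which rests on 3 counts. In thymoma epithelium RTS0066916 stood at 22.6 CPM in mouse 1044, against 19.4 to 19.8 in the other thymoma mice. The part of depth in these values was not tested.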

How the results depend on the processing

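Of 509 values recomputed under alternatives, 381 kept their direction and size or call, 111 moved, 17 lost a call and none changed sign among called results; 1 alternative, keeping the higher-level members alone, was added after the data were seen. Against medullary epithelium, members called higher were 1 by DESeq2, 2 with Gtf2ifl/wt controls alone and 1 when members were chosen with every mouse weighing alike, and called lower 6 by limma, 27 with Gtf2ifl/fl controls alone, 76 under upper-quartile scaling (beside 3789 of all probes) and 30 among the top 100 members. The median was -0.74 after a filter at the median, -0.49 by limma and -0.39 with Gtf2ifl/fl controls. It was -0.44 under upper-quartile scaling, -0.44 for 100 members and -0.52 for the higher-level members. The filter at the median kept 110 higher-level members here, 83 against cortical epithelium, 103 against medullary T cells and 75 against cortical T cells. It kept 0 low-level members in each, so its counts and medians rest on a smaller set of members. Against cortical epithelium, called higher were 9 by DESeq2 (beside 718 of all probes), 2 after the filter (beside 241 of 10087 probes) and 0 by limma (beside 0). With Gtf2ifl/fl and Gtf2ifl/wt controls 3 and 0 were called higher, beside 157 and 0 of all probes. Upper-quartile scaling called 8 higher and 3 lower, beside 407 and 818. Of 100 members 7 were called higher, and of the higher-level ones 5. The medians were 0.19 after the filter, 0.64 by limma, 0.35 under upper-quartile scaling, 0.39 for 100 members and 0.17 for the higher-level ones. Against medullary T cells, called lower were 64 by DESeq2, 1 by limma, 15 and 24 with Gtf2ifl/fl and Gtf2ifl/wt controls, 89 under upper-quartile scaling (beside 3168 of all probes) and 24 with equal weights, with medians of -0.83 after the filter, -0.55 by limma, -0.57 under upper-quartile scaling, -0.56 for 100 members and -0.59 for the higher-level ones. Against cortical T cells DESeq2 called 9 higher, beside 757 of all probes. The median there was 0.18 by DESeq2, 0.035 after the filter, 0.11 by limma, 0.18 with Gtf2ifl/wt controls, 0.19 under upper-quartile scaling and 0.11 for the higher-level ones. Against control B cells the median was 0.51 by limma.

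For thymoma epithelium against T cells, called higher were 44 by DESeq2 (beside 1697 of all probes), 43 after the filter (beside 2073 of 10087 probes), 42 of 100 members and 53 higher-level ones. Called lower were 2 by DESeq2 (beside 734 of all probes), 6 of 100 members and 6 with equal weights. The medians were 0.16 after the filter and 0.12 for the higher-level ones. The filter at the median kept 87 higher-level members and 0 low-level ones there. Without the replicate block, that is without pairing the classes by mouse, 0 were called higher and 0 lower there, beside 13 and 0 of all probes. For thymoma B cells against T cells it gave 2 lower, beside 2011 of all probes. For B cells against T cells 37 were called higher with equal weights. Called lower were 1 after the filter (beside 1947 of 10087 probes), 2 by limma (beside 2010 of all probes) and 2 under upper-quartile scaling (beside 2172). The median was 0.49 after the filter, which kept 94 higher-level members and 0 low-level ones for B cells against T cells. Leaving out 1 mouse gave, against medullary epithelium, 0 to 2 higher, 8 to 59 lower and medians of -0.30 to -0.12; against cortical epithelium 1 to 52 higher, 0 to 2 lower and medians of 0.38 to 0.58; against medullary T cells 0 to 70 lower; against cortical T cells 0 to 43 higher, 0 to 3 lower and medians of 0.17 to 0.40; for epithelium against T cells 2 to 12 lower and medians of 0.20 to 0.29; and for B cells against T cells 2 to 9 lower. The causes were not tested. DESeq2 gave no adjusted p to most low-level members. It also gave none to 110 of the 134 higher-level ones against control B cells and 36 against cortical epithelium. For epithelium against T cells it left out 13 of the 134, and in the other comparisons 2 to 6. All these members stay out of these counts of lost calls.

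Limits: control medulla rests on 3 mice, 1 of them shallow. Slide and genotype cannot be told apart, the probes carry no gene names, and the low-level members rest on few counts. Choosing members with every mouse weighing alike left 88 of the 200.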
